A study of Mus musculus with 19 samples.

Results

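The binding sites of Oct4 in mouse embryonic stem cells (ESC) were mapped by DamID, which gave 3570 sites, and by chromatin immunoprecipitation (ChIP), which gave 1462 sites. These 5032 sites were taken from a total of 76793 in the 9 peak lists deposited for the series. Sites of either list that overlapped a site of the other by 1 bp or more formed the class found by both assays, and the rest were DamID only or ChIP only. DamID and ChIP met at 376 DamID sites and 390 ChIP sites, which left 3194 DamID only sites and 1072 ChIP only sites. Each class was described by its position relative to transcription start sites (TSS), by its overlap with other peak lists, and by the RNA of the nearby genes in ESC and in neural progenitors (NeuP).

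Oct4, encoded by Pou5f1, is a POU-domain transcription factor that binds an octamer motif, often next to Sox2, and maintains the pluripotent state of ESC. ChIP recovers the DNA that is crosslinked to a protein at the time of fixation, by means of an antibody. In DamID the protein is fused to a bacterial adenine methylase, Dam. The fusion methylates GATC sequences near the places it visits over the life of the culture, so DamID reads out GATC sequences only.

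The ESC were of the E14 line and were grown with LIF on irradiated mouse embryonic fibroblasts. For DamID they were transduced with Dam fused to Oct4, expressed from a heat shock promoter in a retroviral vector, selected with puromycin, and carried no hairpin; the labels name Dam-Oct4 the positive control and Dam-GFP the negative control of the DamID experiment. The DamID list stood for 2 replicates; the labels do not say how it was made from them or how Dam-GFP entered. The Oct4 ChIP came from 1 library of ESC carrying a non-target hairpin (shCtrl), called control ESC below, so the cells of the 2 assays differed in their transgenes. RNA came from 1 library of control ESC, from 2 libraries of ESC in which the nuclear pore protein Nup153 was knocked down (hairpins #2 and #4), and from 2 libraries of NeuP, which carried no hairpin, were derived through embryoid bodies and Noggin, and were grown in FGF2 and EGF. The labels name no line for NeuP and do not say whether libraries came from separate cultures.

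The Oct4 ChIP library held 24.6 M tags and the RNA libraries between 24.3 and 32.2 M reads. The approximate immunoprecipitation efficiency given for the Oct4 ChIP was 0.17%, against 3.67% for the Ring1B and 4.29% for the Cbx7 ChIP of control ESC. Of 4439 putative Oct4 peaks, 2971 were filtered out against the background library. Whether DamID only sites held ChIP signal below the calling threshold was not tested. The identity of the cells was checked on marker lists. In control ESC 36 of 38 pluripotency genes stood at 1 FPKM (reads per kilobase of transcript and per M reads) or more. Fibroblast markers, which the feeder cells could contribute, stood at 1 FPKM or more for 12 of 20 genes, with Lum listed at 0 and a summed level of 356 FPKM in control ESC against 288 and 289 FPKM in the NeuP libraries. Cyr61 was the highest of them in control ESC at 137 FPKM. With Fn1 (131 FPKM) and Ctgf (48.4 FPKM) it made up most of the control ESC sum. The part of feeder RNA in the ESC values was not tested.

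The 2 lists differed in form before any overlap was counted. DamID sites were at least 2501 bp wide, with a median of 2501 bp and a maximum of 10538 bp, and covered 10.7 Mb. Oct4 ChIP sites were all 177 bp wide and covered 0.259 Mb. Neither list gave a height or score, so sites could not be ranked by strength.

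Promoters with an Oct4 ChIP site at or next to the start of the gene are shown first, since their sequence could be read from RefSeq. In the mm9 coordinates of the deposited transcript table, 38 genes had a ChIP site in the 300 bases from 250 before to 50 after the TSS, 3 of them at sites found by both assays and 35 at ChIP only sites. RefSeq promoter sequences of the GRCm38.p6 build were matched to 27 of these genes. All 3 matched promoters of the class found by both assays, Liph, Pipox and Zfp428, held the octamer ATGCAAAT on either strand. The octamer was in 4 of the 24 matched ChIP only promoters, those of Pim2, Nrarp, Egln2 and Col25a1. Of the promoters of all 17994 matched genes, at the same length, 1.86% held it. The match covered 71.1% of the 38 genes, below the 80% needed to treat the set as complete, so a comparison of shares is void and the sequences are given as examples. The composite Oct4-Sox2 motif, in which a Sox motif precedes the octamer and overlaps it by construction, was searched on both strands and found in 4 promoters among all matched genes, including Pipox and Nrarp.

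The 250 bases before the RefSeq start are shown for the 3 promoters found by both assays and for 2 ChIP only promoters, 5′ to 3′ on the strand of the gene. Capitals mark the octamer as read on that strand (ATGCAAAT or its reverse complement ATTTGCAT).
Pipox, found by both: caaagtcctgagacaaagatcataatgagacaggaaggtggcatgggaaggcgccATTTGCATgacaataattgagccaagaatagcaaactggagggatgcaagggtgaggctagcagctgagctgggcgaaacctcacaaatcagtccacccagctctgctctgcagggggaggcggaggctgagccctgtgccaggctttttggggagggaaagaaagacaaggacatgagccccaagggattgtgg
Zfp428, found by both: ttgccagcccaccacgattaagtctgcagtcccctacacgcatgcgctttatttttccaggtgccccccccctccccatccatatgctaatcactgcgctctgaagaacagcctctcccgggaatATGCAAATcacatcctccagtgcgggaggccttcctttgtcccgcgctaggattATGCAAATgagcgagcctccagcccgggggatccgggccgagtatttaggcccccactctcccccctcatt
Liph, found by both: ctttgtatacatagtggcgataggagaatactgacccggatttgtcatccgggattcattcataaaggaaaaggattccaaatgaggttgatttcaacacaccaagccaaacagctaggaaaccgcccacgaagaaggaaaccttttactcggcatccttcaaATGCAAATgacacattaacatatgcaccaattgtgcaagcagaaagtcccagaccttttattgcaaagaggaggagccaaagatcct
Pim2, ChIP only: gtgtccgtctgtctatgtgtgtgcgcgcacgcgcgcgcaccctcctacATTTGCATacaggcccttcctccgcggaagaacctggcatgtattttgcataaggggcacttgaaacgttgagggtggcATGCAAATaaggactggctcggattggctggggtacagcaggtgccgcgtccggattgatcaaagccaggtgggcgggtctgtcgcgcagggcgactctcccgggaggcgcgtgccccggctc
Nrarp, ChIP only: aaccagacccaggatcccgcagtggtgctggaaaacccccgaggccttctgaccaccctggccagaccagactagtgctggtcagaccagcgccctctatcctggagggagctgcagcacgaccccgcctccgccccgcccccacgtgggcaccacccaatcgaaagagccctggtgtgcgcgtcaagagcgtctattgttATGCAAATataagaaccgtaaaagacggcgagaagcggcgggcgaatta
In GRCm38.p6 these windows are chr11:77893873-77894122 (minus strand) for Pipox, chr7:24506837-24507086 (plus strand) for Zfp428, chr16:21995543-21995792 (minus strand) for Liph, chrX:7878056-7878305 (plus strand) for Pim2 and chr2:25180508-25180757 (plus strand) for Nrarp. The octamer began 195 bases before the start in Pipox, 87 bases before it in Liph and 49 bases before it in Nrarp. Zfp428 held 2 copies, 125 and 71 bases before the start, and Pim2 held 2 copies, 202 and 123 bases before it. Each of the 5 windows also held 1 GATC, the sequence that Dam methylates. The same windows of Egln2 and Col25a1, the ChIP only octamer promoters not shown, held no GATC. No genome of the mm9 build was used here, so the letters under the sites themselves were not read.

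The octamer promoters did not share an RNA pattern. Pipox, a peroxisomal oxidase of pipecolic acid, stood at 23.5 FPKM in control ESC and at 38.8 and 49.9 FPKM in the NeuP replicates. Liph, a phospholipase, stood at 1.07 FPKM in control ESC and at 0.025 and 0.098 FPKM in NeuP. Pim2, a serine/threonine kinase, stood at 22.4 FPKM in control ESC and at 4.68 and 3.87 FPKM in NeuP. Nrarp, an ankyrin repeat protein induced by Notch signalling, went the other way, from 1.56 FPKM in control ESC to 17.6 and 18.6 FPKM in NeuP. Liph (adjusted p = 0.0158 in limma) and Pim2 (adjusted p = 0.00567) fell, Nrarp rose (adjusted p = 0.00271), and Pipox (adjusted p = 0.0564) and Zfp428 (adjusted p = 0.198) did not pass the threshold of 0.05.

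Sites found by both assays were 10.5% of the DamID list (Wilson 95% interval 9.57 to 11.6%) and 26.7% of the ChIP list (24.5 to 29.0%). Intervals here and below cover counting error of the sites only, since each assay has 1 list and no spread between replicates can be had. Most pairs were 1 to 1: 13 DamID sites held 2 or more ChIP sites, with at most 3. In the 390 pairs the centre of the ChIP site lay a median of 502 bp from the centre of the DamID site, with quartiles of 262 and 918 bp, and 86.4% lay within 1250 bp. Sites of a pair overlap by rule, so their widths bound these distances. For DamID sites of minimum width the share within 1250 bp is close to fixed in advance. DamID sites found by both were wider than the DamID only sites, with medians of 3147 and 2501 bp, and 47.3% against 67.3% of them had the minimum width.

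Most sites found by a single assay had no site of the other assay nearby: 17.5% of DamID only and 27.1% of ChIP only sites had one within 50 kb, and the median distances were 332324 and 156786 bp. Allowing a gap of up to 5 kb raised the shared sites to 488 DamID and 467 ChIP sites, and a gap of up to 50 kb to 934 (26.2%) and 681 (46.6%), overlapping sites included. Nanog, a core pluripotency factor, had sites of both assays close together. Its ChIP only site at chr6:122649577-122649753 (mm9), 7754 bp upstream of the TSS, lay between DamID only sites at chr6:122644622-122647122 and chr6:122652147-122654647, at 2454 and 2393 bp. Pou5f1 itself was a case without a DamID site nearby. Its ChIP only site at chr17:35640923-35641099 lay 1878 bp upstream of the TSS, and the nearest DamID site was 271446 bp away. Klf5, a Krüppel-like factor of the naive network, was the reverse, with 4 DamID only sites and no ChIP site among the sites to which it was the nearest gene.

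**Figure D1:**
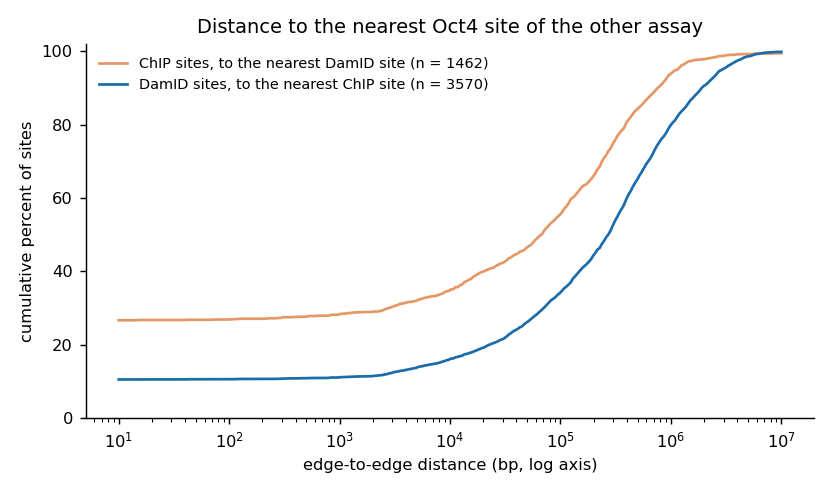
Cumulative percent of Oct4 sites (y axis) by edge-to-edge distance to the nearest site of the other assay (x axis, bp, log scale). Overlapping sites count from the left edge, so the curves start at 26.7% for the 1462 ChIP sites and 10.5% for the 3570 DamID sites and reach 46.6% and 26.2% at 50 kb.

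Both assays placed most sites away from TSS. The edge of a site lay within 2 kb of a TSS for 49 of 376 DamID sites found by both (13.03%, 10.0 to 16.8%), 549 of 3194 DamID only sites (17.2%, 15.9 to 18.5%), 29 of 390 ChIP sites found by both (7.44%, 5.23 to 10.5%) and 133 of 1072 ChIP only sites (12.4%, 10.6 to 14.5%). By edge the 2 DamID intervals overlapped, and the 2 ChIP intervals lay just apart. A wide site reaches a TSS more easily, so distances were also taken from site centres, a measure chosen after seeing the data. By centre the shares were 7.18% for DamID and 7.18% for ChIP sites found by both, 12.0% for DamID only and 12.3% for ChIP only sites. By that measure the intervals of the class found by both (4.98 to 10.2% for DamID, 5.01 to 10.2% for ChIP) lay below those of DamID only (10.9 to 13.2%) and ChIP only sites (10.5 to 14.4%), and the last pair overlapped each other. The sites that both assays found lay outside all transcripts of the table in 56.1% (DamID) and 60.3% (ChIP) of cases, against 44.1% of DamID only and 52.4% of ChIP only sites. Median distances to the nearest TSS ranged from 22399 to 25094 bp over the 4 groups.

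**Figure D2:**
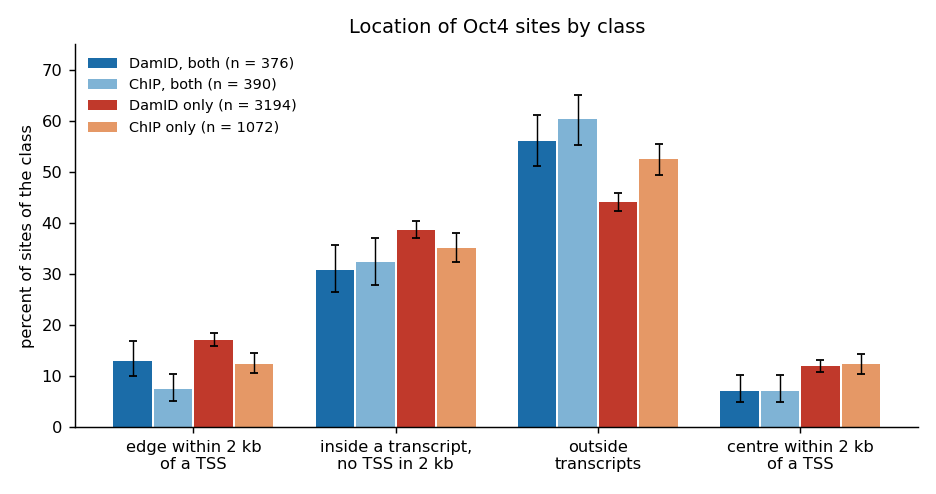
Percent of sites of each class (y axis) by location, for DamID sites and ChIP sites found by both assays, DamID only and ChIP only sites; error bars are Wilson 95% intervals. By site centre (right), a measure chosen after seeing the data, 7.18% of the sites found by both assays lay within 2 kb of a TSS. The shares were 12.0% of DamID only and 12.3% of ChIP only sites.

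Sites were spread over the autosomes and were sparse on the X chromosome, with 37 DamID and 17 ChIP sites. Chromosome 8 held 270 DamID sites, the largest number for that assay, and 124 ChIP sites. Chromosome 6 held the largest number of ChIP sites, 130, among them those of Nanog, Gdf3, Dppa3 and Phc1 within a stretch that also holds DamID sites. The share of ChIP sites found by both ranged from 5.88% on the X chromosome to 31.6% on chromosome 3.

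The classes were then set against peak lists that the class rule did not use. A ChIP for Oct4 in ESC with Nup153 hairpin #2 overlapped 72.8% (68.2 to 77.0%) of the control ChIP sites found by both assays and 61.2% (58.2 to 64.1%) of ChIP only sites. It overlapped 3.26% (2.69 to 3.93%) of DamID only sites. Together the 2 Oct4 ChIP lists overlapped 480 of 3570 DamID sites (13.4%). ChIP sites that were also in the hairpin #2 list were overlapped by DamID in 30.2% (27.4 to 33.2%) of cases, and those that were not in 20.3% (17.1 to 24.0%). These 2 intervals, which cover counting error of the sites only, did not overlap. The second ChIP library came from Nup153 knockdown cells, so repeated detection and the knockdown cannot be told apart.

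Nup153 DamID, for which Dam was fused to Nup153 in the same kind of vector, overlapped 39.2% (37.6 to 40.9%) of Oct4 DamID only sites and 3.08% (33 of 1072) of Oct4 ChIP only sites. It overlapped 53.5% of DamID and 50.0% of ChIP sites found by both assays. Of the 228 ChIP sites under a Nup153 DamID site, 195 (85.5%, 80.4 to 89.5%) also had an Oct4 DamID site, against 195 of the other 1234 (15.8%, 13.9 to 17.9%). The Nup153 list held 3516 sites over 10.4 Mb, close to the Oct4 DamID list in number and extent. The part that the shared DamID procedure has in this overlap was not tested.

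Polycomb repressive complex 1 (PRC1) holds developmental genes in a silent state, and both Ring1B and Cbx7 belong to it. Ring1B ChIP of control ESC overlapped 90.2% (86.7 to 92.8%) of DamID and 86.7% (82.9 to 89.7%) of ChIP sites found by both assays, 61.0% (58.1 to 63.9%) of ChIP only sites and 41.4% (39.7 to 43.1%) of DamID only sites. The Cbx7 list overlapped 46.3%, 40.8%, 33.4% and 11.7% of the same groups. Among DamID sites with a Ring1B site, 20.4% (18.6 to 22.4%) were also found by Oct4 ChIP, against 1.94% (1.41 to 2.66%) of those without. The Ring1B overlap was not confined to TSS: it was 91.5% for DamID sites of the class found by both that lay outside transcripts and 85.7% for those within 2 kb of a TSS. Ring1B and Cbx7 sites were called from 1 library each, over 7.93 and 13.7 Mb, so their sites were on average wider than those of the Oct4 ChIP.

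**Figure D3:**
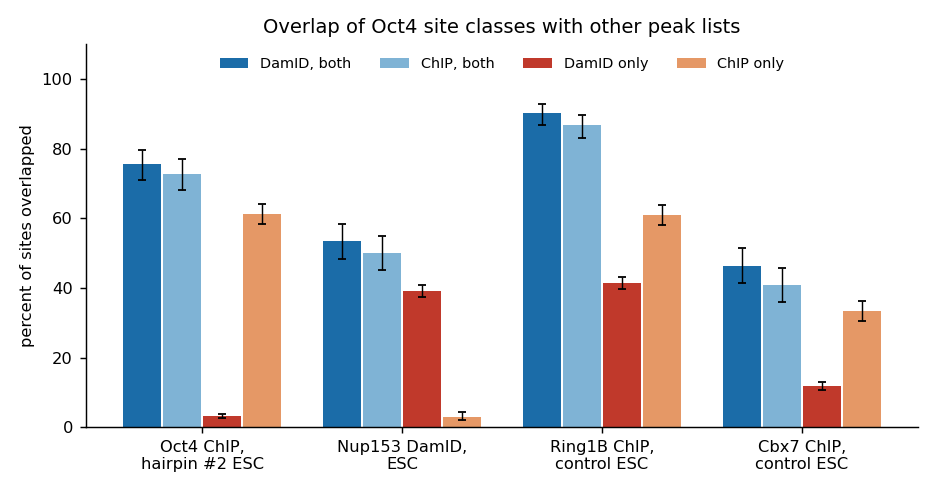
Percent of sites of each class (y axis) that shared at least 1 bp with 4 other ESC peak lists; error bars are Wilson 95% intervals. DamID only sites met the hairpin #2 Oct4 ChIP in 3.26% and the Nup153 DamID list in 39.2% of cases, and ChIP only sites met them in 61.2% and 3.08%.

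For each class the genes with a TSS within 2 kb of a site edge were collected. In the class found by both, the DamID or the ChIP site of a pair could meet this rule. Its genes thus need no ChIP site within 2 kb, as for Calcoco2, whose ChIP site lay 2242 bp upstream. There were 55 genes at sites found by both assays, 619 at DamID only sites and 146 at ChIP only sites, 813 different genes or 3.39% of the 24016 in the table. DamID reached 673 genes and ChIP 176, and 36 genes were reached by both, which is 5.35% of the DamID genes and 20.5% of the ChIP genes. With the nearest TSS up to 50 kb away, 2044 and 926 genes were reached and 384 shared (18.8% and 41.5%). By the nearest TSS the shares of genes were above the shares of sites that overlapped (10.5% and 26.7%), but the gene rule is the looser one. With a gap of up to 50 kb the shares of sites were 26.2% and 46.6%, above those of genes. Nanog was among the genes reached by sites of both assays that do not touch.

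Genes at Oct4 sites were expressed in control ESC more often than genes at large. The level was 1 FPKM or more for 89.1% (78.2 to 94.9%) of genes at sites found by both, 72.2% (68.6 to 75.6%) at DamID only and 74.7% (67.0 to 81.0%) at ChIP only sites, against 48.7% of all genes. The median level was 21.3, 6.70 and 8.65 FPKM in the 3 classes and 0.83 FPKM over the table. The highest levels at sites found by both were those of Dppa5a and Fbxo15, a pair of pluripotency markers, at 432 and 248 FPKM, followed by Ssr2, a subunit of the translocon-associated complex, at 167 FPKM, Parp1, which makes poly(ADP-ribose) at DNA breaks, at 157 FPKM, and Msh6, of DNA mismatch repair, at 139 FPKM. At DamID only sites the highest were the elongation factor Eef1a1 (2386 FPKM), the chaperone calreticulin, Calr (1033 FPKM), the metallothionein Mt2 (670 FPKM), the glucose transporter Slc2a3 (662 FPKM) and the chaperone Hsp90aa1 (529 FPKM). At ChIP only sites Pou5f1 (543 FPKM) and Dppa5a led, followed by the mitochondrial channel Vdac1 (432 FPKM), the prolyl isomerase Fkbp3 (329 FPKM) and the RNA-binding protein Pcbp1 (245 FPKM).

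The comparison of NeuP with control ESC asks how these genes fare once ESC have left the pluripotent state. Of 13750 genes tested, 18.3% were higher and 24.9% lower in NeuP, 43.2% in all (limma on log2(FPKM + 1), adjusted p under 0.05, two-sided). At sites found by both assays 20 of 51 tested genes were lower (39.2%, 27.03 to 52.9%) and 7 higher (13.7%). At DamID only sites 186 of 492 were lower (37.8%, 33.6 to 42.2%) and 68 higher (13.8%, 11.1 to 17.2%). At ChIP only sites 31 of 122 were lower (25.4%, 18.5 to 33.8%) and 23 higher (18.9%, 12.9 to 26.7%), near the share of all genes in both directions. The median difference was -0.75, -0.78 and -0.54 on the log2 scale in the 3 classes and -0.26 over all genes tested.

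Among genes at 1 FPKM or more in control ESC, a range chosen after seeing the data, 28.0% of all were lower and 12.5% higher. In that range 182 of 447 genes at DamID only sites were lower (40.7%, 36.3 to 45.3%). At sites found by both 19 of 49 were lower (38.8%, 26.4 to 52.8%) and at ChIP only sites 31 of 109 (28.4%, 20.8 to 37.5%). The last 2 intervals include the 28.0% of all genes. By the nearest TSS up to 50 kb, 86 of 210 genes at sites found by both were lower (41.0%, 34.5 to 47.7%), 494 of 1477 at DamID only sites (33.4%) and 164 of 536 at ChIP only sites (30.6%). Among those at 1 FPKM or more in control ESC, 82 of 193 at sites found by both were lower (42.5%, 35.7 to 49.5%). At DamID only sites these were 478 of 1359 (35.2%, 32.7 to 37.8%) and at ChIP only sites 159 of 478 (33.3%, 29.2 to 37.6%). By this rule each interval lay above the 28.0% of all genes. The share that was lower went up with the number of Oct4 sites for which a gene was the nearest: 23.6% with 0 sites, 29.8% with 1, 37.5% with 2 and 46.0% with 3 or more, beside medians of -0.22, -0.42, -0.65 and -1.04 on the log2 scale. Sites of both lists were counted, so a place found by both assays added 1 DamID and 1 ChIP site. The groups with 2 or more sites thus mix the number of places with the class found by both. Genes with more sites were also higher in control ESC, with medians of 0.575, 5.18, 7.90 and 14.4 FPKM, and the part of that level in the order was not tested.

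These counts rest on 1 control library, taken to have the spread of the hairpin and NeuP groups, so the p-values cover no more than the variation among these 5 libraries, which may be technical. The counts moved with the libraries that supplied the spread, and the shares called over all genes moved with them, here and for the gene lists below. Without the hairpin #2 ESC library, 12 of 51 genes at sites found by both, 87 of 492 at DamID only and 14 of 122 at ChIP only sites were lower, against 11.0% of all genes, and the same 3 counts were obtained without the hairpin #4 library. Of the 128 named genes 58 then moved below the threshold, in each case. Without NeuP replicate 1 they were 31, 274 and 62, against 43.1% of all genes, and without NeuP replicate 2 they were 30, 292 and 60, against 48.2%.

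**Figure D4:**
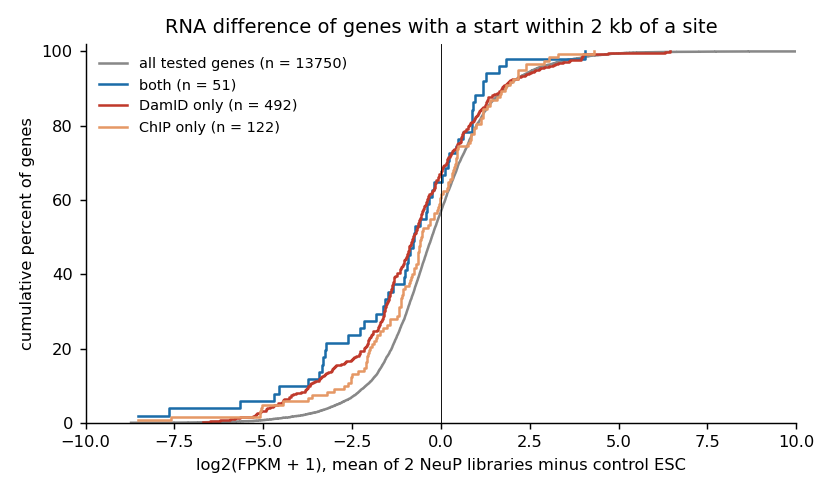
Cumulative percent of genes (y axis) by the difference in log2(FPKM + 1) between the mean of the 2 NeuP libraries and control ESC (x axis), for genes with a TSS within 2 kb of a site of each class and for all tested genes. The medians are -0.75 (both), -0.78 (DamID only), -0.54 (ChIP only) and -0.26 (all).

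Pluripotency genes were the group in which the classes could be compared gene by gene. Of the 38 genes of the list, 20 had a TSS within 2 kb of an Oct4 site (52.6%, against 3.39% of all genes) and 31 were the nearest gene to a site within 50 kb (81.6%, against 10.8%). Sites found by both lay near 6 of the 20, DamID only sites near 10 and ChIP only sites near 6, with Dppa5a and Mycn in more than 1 class. In NeuP 34 of the 38 were lower and 1, the DNA demethylase gene Tet2, was higher, a call that was lost without either hairpin library, when 26 were lower; this list marks the ESC state and is no independent evidence on Oct4 sites. In bulk RNA a smaller number of cells with a transcript and less of it per cell cannot be told apart.

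At sites found by both assays stood markers of the naive state and a ligand. Dppa3, a maternal factor that protects DNA methylation in the zygote, had a DamID site over its TSS, chr6:122573218-122577118, with a ChIP site 1657 bp upstream, chr6:122574609-122574785. Its level was 50.0 FPKM in control ESC, 0.038 FPKM in NeuP replicate 1 and listed at 0 in replicate 2. Fbxo15, an F-box gene long used as an ESC reporter, had a DamID site over the TSS on chromosome 18 and a ChIP site 409 bp upstream. It went from 248 FPKM in control ESC to 0.277 and 0.183 FPKM in NeuP, a log2 difference of -7.66 ± 0.19 SE (adjusted p = 0.00238 in limma). Both genes were near absent from each NeuP library.

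Zscan10, a zinc finger factor of ESC, lay under a DamID site, chr17:23734760-23743202, with a ChIP site 447 bp downstream of the TSS, and had 9.21 FPKM in control ESC against 0.015 and 0.019 FPKM in NeuP. Upp1, uridine phosphorylase, had a DamID site over the TSS, chr11:9015330-9020484, that held 2 ChIP sites, 801 and 1946 bp upstream. Its level was 108 FPKM in control ESC and 3.77 and 12.9 FPKM in NeuP, a log2 difference of -3.75 ± 0.72 SE, and the NeuP replicates lay well apart although both were below control ESC. Nodal, the TGF-beta family ligand that patterns the early embryo, had a DamID site over the TSS and a ChIP site 1805 bp upstream, chr10:60878739-60878915, with 9.08 FPKM in control ESC and listed at 0 in both NeuP libraries.

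Dppa5a showed both patterns at one gene. Its ChIP only site, chr9:78216595-78216771, lay 589 bp upstream of the TSS with the nearest DamID site 2564 bp away, and that DamID site, chr9:78211530-78214030, lay on the other side of the TSS over a second ChIP site 3077 bp downstream. The gene had 432 FPKM in control ESC and 0.147 and 0.195 FPKM in NeuP, a log2 difference of -8.53 ± 0.22 SE (adjusted p = 0.00238 in limma).

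Among the DamID only genes were several transcription factors of the naive network. Zfp42 (Rex1), a zinc finger marker of naive ESC, had a DamID site over its TSS, chr8:44389216-44393197, and its nearest ChIP site lay 13005 bp away. It went from 76.6 FPKM in control ESC to 0.277 and 0.252 FPKM in NeuP. Klf5 went from 21.9 FPKM to 0.724 and 0.551 FPKM, and Tbx3, a T-box factor, from 13.03 FPKM to 0.007 and 0.071 FPKM. All 3 were lower in both NeuP libraries than in control ESC.

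Sall4, a zinc finger factor that acts with Oct4 in ESC, had a DamID site, chr2:168584753-168592429, whose near edge lay 272 bp downstream of its TSS, and its nearest ChIP site was 16241 bp away. Its level was 21.1 FPKM in control ESC and 0.012 and 0.016 FPKM in NeuP. Nr5a2, an orphan nuclear receptor, had 9.48 FPKM in control ESC and 0.026 and 0.466 FPKM in NeuP, and Dppa4, a chromatin-associated ESC protein, had 18.2 FPKM and was listed at 0 in both NeuP libraries. Tdgf1 (Cripto), the Nodal coreceptor, had a DamID site over its TSS, chr9:110847995-110851868. That site was DamID only against the control ChIP but was overlapped by the hairpin #2 Oct4 ChIP, and Tdgf1 went from 54.3 FPKM in control ESC to 0.13 and 0.021 FPKM in NeuP. Spp1, osteopontin, went from 192 FPKM to 1.04 and 2.37 FPKM.

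The ChIP only genes held Oct4 itself and Utf1, which encodes a chromatin-bound ESC factor. Pou5f1 stood at 543 FPKM in control ESC, at 476 and 501 FPKM in the hairpin #2 and #4 ESC, and at 1.99 and 1.65 FPKM in NeuP, so the factor mapped in ESC was near absent in NeuP at the RNA level. Its site was also found by the hairpin #2 Oct4 ChIP, by Ring1B and by Cbx7. Utf1 had its site 1735 bp downstream of the TSS, chr7:147131490-147131666, with the nearest DamID site at 10205 bp, and went from 34.5 FPKM to listed at 0 and 0.071 FPKM in NeuP. Gdf3, a TGF-beta family ligand, had 8.16 FPKM in control ESC and was listed at 0 in both NeuP libraries. Lefty1, a Nodal antagonist, was low in control ESC (0.247 FPKM) and did not pass the test (adjusted p = 0.288, limma).

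Other pluripotency genes were reached only from a distance. Esrrb, an orphan nuclear receptor of the naive network, had a DamID site at chr12:87810113-87815775 inside its transcript, 47519 bp from the TSS, which held a ChIP site at chr12:87811940-87812116. Klf2 had a ChIP only site 2710 bp upstream and a pair found by both assays 15295 bp downstream of its TSS (ChIP site chr8:74858256-74858432). Tet1, a DNA demethylase, had a ChIP site 13347 bp upstream inside a DamID site, and Tdh, threonine dehydrogenase, had a pair found by both inside its transcript. Esrrb went from 119 FPKM to 0.126 and 0.57 FPKM, Klf2 from 16.6 FPKM to 1.01 and 0.546 FPKM, and Tet1 from 20.9 FPKM to 3.26 and 5.24 FPKM. Sox2, the partner of Oct4, had a ChIP only site 3953 bp and a DamID only site 14049 bp downstream, and stood at 49.9 FPKM in control ESC and at 110 and 84.2 FPKM in NeuP (adjusted p = 0.0564, limma).

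**Figure D5:**
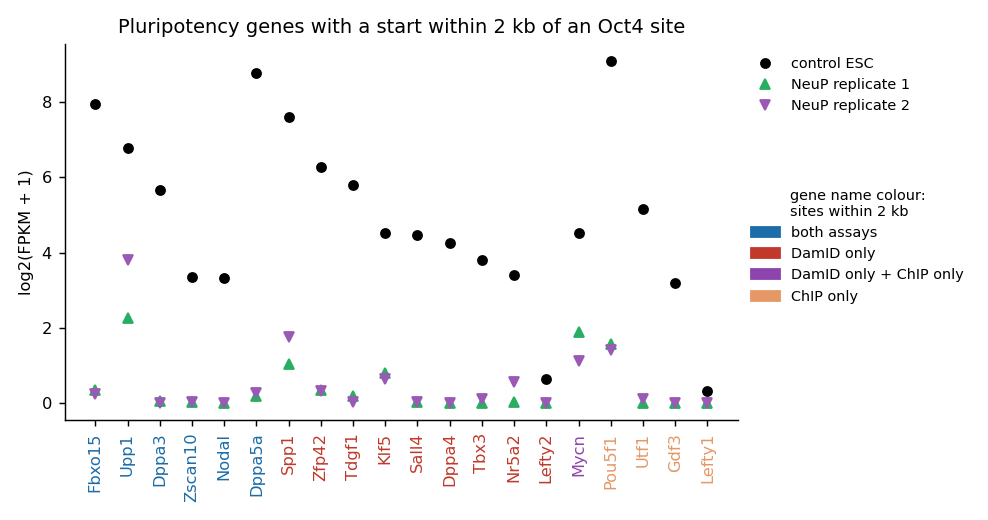
Level of the 20 pluripotency genes with a TSS within 2 kb of an Oct4 site, as log2(FPKM + 1) (y axis), in the control ESC library and in each NeuP library; the colour of the gene name gives the class of its sites, with Dppa5a, which also had a ChIP only site, shown under both assays. Of the 20 genes, 19 were lower in NeuP and Lefty1 did not pass the test.

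Signalling genes showed all 3 classes. In the LIF pathway, which maintains ESC through STAT3, Il6st, the shared receptor gp130, had a DamID site with its edge 239 bp upstream of the TSS that held a ChIP site 1359 bp upstream, and Lifr, the LIF receptor, had a ChIP site 23767 bp upstream inside a DamID site. Lifr rose from 6.90 FPKM to 17.4 and 16.3 FPKM (adjusted p = 0.0144, limma), while Il6st stood at 9.41, 33.8 and 14.8 FPKM and did not pass (adjusted p = 0.158). Bcl3, an IkB family member induced by LIF, had a DamID only site 80 bp upstream and went from 3.52 FPKM to 0.017 and 0.023 FPKM. In the list of 11 LIF and STAT3 genes 5 were the nearest gene to a site (45.5%, against 10.8% of all genes), and 4 of 10 tested were lower and 2 higher, beside 24.9% and 18.3% of all genes. Without either hairpin library 2 were lower and 0 higher, without NeuP replicate 1 the counts were 6 and 3, and without NeuP replicate 2 they were 4 and 4. Of 16 TGF-beta, Nodal and BMP genes, 11 were nearest to a site (68.8%), and 8 were lower and 4 higher, which became 5 and 0 without either hairpin library. Lefty2, a Nodal antagonist with a DamID only site, was among the lower genes at 0.562 FPKM in control ESC and listed at 0 in both NeuP libraries.

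Of 30 PRC1 and PRC2 subunits 4 had a site within 2 kb (13.3%, against 3.39% of all genes) and 12 were the nearest gene to a site (40.0%, against 10.8%). In NeuP 9 were lower and 4 higher, beside 24.9% and 18.3% of all genes, and these counts were 1 and 0 without either hairpin library and 19 lower with 7 or 8 higher without NeuP replicate 1 or 2. Phc1, a PRC1 subunit, had a DamID site 462 bp upstream, chr6:122290137-122292637, that held 2 ChIP sites, and went from 84.0 FPKM to 23.1 and 23.1 FPKM (adjusted p = 0.00791, limma). Jarid2, which recruits PRC2, had 7 sites, 1 pair of them found by both assays, and went from 42.0 FPKM to 18.98 and 12.2 FPKM (adjusted p = 0.0385). Cbx7 had a DamID only site 31506 bp upstream and went from 38.1 FPKM to 2.07 and 1.84 FPKM.

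Of 29 neural progenitor genes, 22 rose in NeuP and 0 fell, beside 18.3% and 24.9% of all genes. Without the hairpin #2 library 10 rose, without the hairpin #4 library 9, and without NeuP replicate 1 25 rose and 2 fell. A site lay within 2 kb of 4 of the 29 (13.8%, against 3.39% of all genes), in no case a site found by both assays, and 8 were the nearest gene to a site (27.6%, against 10.8%). Slc1a3, the glial glutamate transporter, had a DamID only site over its TSS, chr15:8658648-8662241, and went from 2.41 FPKM in control ESC to 273 and 321 FPKM in NeuP, the largest rise among DamID only genes with a log2 difference of 6.45 ± 0.29 SE (adjusted p = 0.00238 in limma). Vim, an intermediate filament gene, also had a DamID only site over its TSS and went from 100 FPKM to 913 and 506 FPKM. The remaining pair did not pass: Hes1, a Notch target with a DamID only site, and Notch1, with a ChIP only site 275 bp upstream, at 6.66 FPKM in control ESC and 63.7 and 23.9 FPKM in NeuP (adjusted p = 0.0523).

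For the other lists the genes with a TSS within 2 kb of a site are set beside 3.39% of all genes, and the calls in NeuP beside 18.3% higher and 24.9% lower. The counts were 1 of 11 formative and primed epiblast genes (Dnmt3a; 2 of the list higher and 4 lower in NeuP), 0 of 14 neuron genes (3 higher, 2 lower), 1 of 11 glia genes (Pdgfra, which is also in the primitive endoderm list; 3 higher, 2 lower) and 4 of 16 primitive endoderm genes (0 higher, 7 lower). They were 0 of 13 trophoblast genes (0 higher, 10 lower), 0 of 11 mesoderm genes (0 higher, 3 lower), 0 of 20 fibroblast genes (7 higher, 4 lower) and 2 of 39 HOX genes (5 higher, 5 lower). As shares these were 25% for primitive endoderm, 9.09% for glia and for epiblast, and 5.13% for HOX genes. The calls in NeuP are out of the tested genes alone, which were 8 epiblast, 12 neuron, 9 glia and 14 primitive endoderm genes. In the remaining lists 11 trophoblast, 3 mesoderm, 20 fibroblast and 12 HOX genes were tested. Without either hairpin library the genes called higher fell to 0 for neuron and glia, 1 for HOX and for epiblast and 3 for fibroblast genes, and those called lower to 1 for neuron and for glia and 2 for epiblast and for fibroblast genes. Without NeuP replicate 1 or 2 they went up to 8 higher for neuron, 7 for glia and 12 for fibroblast genes at most, and to 4 lower for neuron and 8 for fibroblast genes. The 4 primitive endoderm genes, Col4a1, Col4a2, Sparc and Pdgfra, all had DamID only sites, and Col4a1 and Col4a2, collagen IV chains that start close to each other, shared 1 site.

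Beyond the genes named above, the largest falls near sites found by both were in Calcoco2, an autophagy receptor (24.9 FPKM in control ESC, 0.015 FPKM and listed at 0 in NeuP), and in the uncharacterised genes 2410007B07Rik (22.5 FPKM, listed at 0 in both NeuP libraries) and 1700019D03Rik (10.3 FPKM, 0.037 and 0.05 FPKM). Among the 7 genes of that class that rose, Reep3, an endoplasmic reticulum protein, led, going from 2.07 FPKM to 54.8 and 46.6 FPKM, a log2 difference of 4.07 ± 0.20 SE (adjusted p = 0.00247 in limma). The other 6, Shf, A930024E05Rik, Dido1, Sdf2, Gid8 and Ext1, rose by between 0.89 and 1.83 on the log2 scale, and Dido1 and Gid8, which start close together, shared the same pair of sites.

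Near DamID only sites the falls were led by Slc38a4, an amino acid transporter (120 FPKM to 0.048 and 0.326 FPKM), Rps4l, a ribosomal protein paralog (91.8 FPKM to 0.066 FPKM and listed at 0), and Slc2a3 (662 FPKM to 5.11 and 9.83 FPKM). Triml2 and Trim6, of the tripartite motif family, fell from 78.3 and 49.7 FPKM to below 1 FPKM in both NeuP libraries. After Slc1a3 the rises were led by BC064078 (0.047 FPKM to 75.1 and 90.9 FPKM), the adhesion protein Alcam (0.072 FPKM to 25.6 and 28.1 FPKM) and Etv1, an ETS factor that also had a ChIP only site. The protocadherin Pcdhgb7 and the reticulon Rtn1 (4.43 FPKM to 90.6 and 79.9 FPKM) came next. Pcdhgb7, Pcdhgb6 and Pcdhgc4, of the gamma protocadherin cluster, were at similar levels to each other in every library; their transcripts share exons, so their values are uncertain as single genes, as is that of Rps4l. Mt2, among the highest in ESC, stood at 670 FPKM there and at 426 and 5.46 FPKM in NeuP, and did not pass (adjusted p = 0.327, limma).

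Near ChIP only sites the falls outside the list were led by the stress-response gene Gadd45b (90.7 FPKM to 2.30 and 1.21 FPKM), melanoregulin, Mreg (69.6 FPKM to 0.45 and 2.06 FPKM), Foxh1, the DNA-binding partner of Nodal-activated Smads with its site over the TSS, chr15:76500250-76500426 (33.3 FPKM to 0.046 and 0.061 FPKM), Zyg11a (21.1 FPKM to 0.014 and 0.018 FPKM) and the basement membrane protein nidogen 2, Nid2 (113 FPKM to 8.73 and 6.59 FPKM). The rises were led by Etv1, with a ChIP only site 705 bp downstream and a DamID only site 1278 bp upstream of its TSS (0.334 FPKM to 21.7 and 29.9 FPKM), Thap2 (0.255 FPKM to 9.45 and 13.6 FPKM) and the noncoding gene Celrr (listed at 0 in control ESC, 8.70 and 5.92 FPKM in NeuP). Nrarp, Tia1, Slc1a4, Cdk19 and Tfap2a followed, with rises between 2.02 and 2.90 on the log2 scale.

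Some genes were surrounded by sites of both assays. Rbpj, the DNA-binding effector of Notch, was the nearest gene within 50 kb of 9 sites: 1 DamID and 1 ChIP site found by both (ChIP site chr5:53933356-53933532, 13486 bp upstream), 6 DamID only sites and 1 ChIP only site. It went from 23.0 FPKM in control ESC to 6.22 and 5.87 FPKM in NeuP. Mycn and Tgif1 had 8 sites each. Mycn, a Myc family factor, went from 21.7 FPKM to 2.72 and 1.16 FPKM, and Tgif1, a corepressor of TGF-beta signalling, from 55.1 FPKM to 15.9 and 15.2 FPKM. Mir6352 and Jarid2 had 7 sites each. Those of Mir6352 lay inside the transcript of Epha4, an ephrin receptor, and Mir6352 was not tested because its listed level was below 1 FPKM in every library. The 4 tested genes of these 5, Jarid2 among them, were lower in both NeuP libraries than in control ESC.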

How the data were processed

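Oct4 sites and RNA were taken from deposited tables. The authors used CASAVA 1.8.2, Bowtie2 2.1.0, STAR 2.2.0c, HOMER 4.6, edgeR and the mm9 build, per the submitters' processing notes, which give them here without a role. The authors deposited RNA as FPKM, with 1 transcript for each of 24016 genes. Peaks of the Oct4 ChIP lists were called by HOMER at a false discovery rate of 0.001, per the file headers. They needed a 4-fold excess over a library the headers name IgG, whereas the labels list an input. The thresholds of the Ring1B and Cbx7 ChIP were not read from their headers. The DamID list has no header of that kind. Peak lists were deposited as positions, with no score in use.

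Overlap meant at least 1 bp shared, and genes belonged to a class when their TSS lay within 2 kb of a site edge. For the class found by both, the site of either assay counted. FPKM of NeuP and control ESC were compared with limma 3.58.1 (R 4.3.3) by its trend method on log2(FPKM + 1), which understates changes of low genes. It was fitted on all 5 RNA libraries in 3 groups for the 13750 genes at 1 FPKM or more in at least 1 library, with 2 residual degrees of freedom and Benjamini-Hochberg adjustment. The depth of each library was read from the steps of its low FPKM values, 100% of which came out as whole reads within 0.1 read. On simulated data for NeuP against control ESC over 13750 genes, limma recovered 36% of genes changed 2-fold and 98% of those changed 4-fold. There were 24 false calls. The changed genes, 50 for each fold, were drawn from genes with many reads. The spread between simulated libraries was a fixed value, not that of the real libraries, so recovery in the real data was not tested. Shares carry Wilson 95% intervals. Overlaps were computed with numpy 2.4.6, scipy 1.17.1 and pandas 2.3.3 under Python 3.11.15 and checked against bedtools 2.31.1, and matplotlib 3.10.9 drew the figures.

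Named genes were the members near a site of 13 lists (core and naive pluripotency, formative and primed epiblast, LIF and STAT3 signalling, TGF-beta, Nodal and BMP signalling, neural progenitor, neuron, glia, primitive endoderm, trophoblast, mesoderm, feeder fibroblast, PRC1 and PRC2 subunits, and HOX), the 8 largest rises and falls and the 5 highest control levels of each class, and the 5 genes nearest to most sites. The octamer promoters were named after their sequences were read. Classes and lists were chosen with earlier results of these data known. No label or header states the strand setting of the authors' RNA count.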

Additional observations from a re-analysis of the deposited data

How the results depend on the processing

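With a gap of up to 5 kb between sites the shares found by both assays moved to 13.7% of DamID and 31.9% of ChIP sites; with a gap of 1 kb, by the ChIP centre, and without chromosomes 8, X and Y they stayed inside the main intervals. Within 1 kb of a TSS lay 4.36% of ChIP sites found by both, 13.8% of DamID only and 8.12% of ChIP only sites, and within 5 kb 21.0% (DamID) and 18.5% (ChIP) of sites found by both, 24.9% of DamID only and 20.3% of ChIP only sites. Counting only transcripts at 1 FPKM or more in control ESC gave 13.4% for DamID only and 9.61% for ChIP only sites. By site centre, chosen after seeing the data, the shares were 7.18% for DamID sites found by both and 12.0% for DamID only sites.

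With the nearest TSS up to 50 kb, 33 genes at sites found by both, 216 at DamID only and 115 at ChIP only sites were higher in NeuP, and 86, 494 and 164 lower. As shares these were 15.7, 14.6 and 21.5% higher and 41.0, 33.4 and 30.6% lower, against 18.3% and 24.9% of all genes. Median control levels by that rule were 9.21, 6.92 and 5.12 FPKM. A fit on control ESC and NeuP alone called 1, 8 and 2 genes of the 3 classes higher (1.96, 1.63 and 1.64%, against 1.75% of all genes). It called 12, 92 and 16 lower (23.5, 18.7 and 13.1%, against 11.8% of all genes). Without the filter on low values 3 genes at sites found by both (5.45%) and 44 at DamID only sites (7.11%) were higher, against 7.86% of all genes. Among genes at 1 FPKM or more in control ESC, chosen after seeing the data, 45 DamID only (10.1%) and 15 ChIP only genes (13.8%) were higher, against 12.5% of all genes. Leaving out 1 library at a time gave 1 to 17, 9 to 129 and 3 to 39 genes higher and 12 to 31, 87 to 292 and 14 to 62 lower in the 3 classes. Quantile normalization moved the median of all genes from -0.26 to -0.06; relative to all genes the class medians were -0.50, -0.52 and -0.28 as reported and -0.45, -0.51 and -0.30 after it. At sites found by both, quantile normalization called 9 genes higher (17.6%) and 16 lower (31.4%), against 21.1% and 20.8% of all genes. When a library was left out, the shares called over all genes moved in the same direction as the counts. Of 38 pluripotency genes, between 26 and 35 were lower over the alternatives run. The planned edgeR test on reads recovered from FPKM is not reported, since the deposited values are not counts. The cause of these shifts was not tested.

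Allowing a gap of 1 kb moved the Ring1B and Cbx7 shares of DamID only sites to 44.0% and 13.7% and the Nup153 DamID share of ChIP only sites to 4.38%; the other shares stayed inside their intervals. Among 128 named genes, 4 changed sign under at least 1 alternative, and none of them had passed the test: after quantile normalization Hes1 was at 0.11 and Sparc at 0.16, and leaving out 1 library at a time gave -0.45 to 0.26 for Hes1, -0.35 to 0.066 for Pcsk6, -3.15 to 0.045 for Socs3 and -1.05 to 0.65 for Sparc, all on the log2 scale. The highest value came without NeuP replicate 1 for Pcsk6 and without NeuP replicate 2 for the others. No paired analysis was possible because control ESC has 1 RNA library without a replicate number and the peak lists hold no column per replicate. Peak lists without scores, 1 ChIP library, DamID replicates merged in 1 list and 1 control RNA library limit the precision: no share of sites has a replicate error, and changes of 2-fold were mostly missed on simulated data.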
